A study of Homo sapiens with 18 samples.

Results

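Hepatocyte growth factor (HGF), its receptor MET and the genes that activate HGF or restrain that activation were followed across U87 cells given a rexinoid. The 6 genes, HGF, MET, HGFAC, ST14, SPINT1 and SPINT2, were found by gene name among the 60675 gene IDs of the deposited tables. They were chosen by earlier results on these same libraries: HGF was selected on its scaled TPM in the A41 and the ethanol libraries, and the others came with it. For that reason all 6 genes are described without a test in A41 against ethanol, and HGF in every comparison that uses an A41 or an ethanol library.

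U87 is an established human glioblastoma line, labelled as unmodified. Cells received ethanol (the vehicle) or 100 nM of a rexinoid once, for 24 h, in 6 groups of 3 libraries: Ethanol, Bexarotene, A34, A41, A80 and A98. Rexinoids activate the retinoid X receptors, which pair with other nuclear receptors on DNA. Bexarotene is a rexinoid in clinical use and was a control together with ethanol, and no source used here gives the structures behind the 4 codes. All groups share 1 cell line. Whether replicates were separate cultures is not labelled, and p-values here reflect only library-to-library spread, which may be technical. The tables of the A98 group carry another code, A90, in their names, and groups here follow the labels.

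HGF is secreted as an inactive single chain. Serine proteases such as the HGF activator (HGFAC) and matriptase (ST14) cut it into the active form, and the membrane-bound Kunitz-type inhibitors encoded by SPINT1 and SPINT2 block those proteases. Active HGF binds MET, a receptor tyrosine kinase, which recruits adaptors such as GAB1 and GRB2 and feeds the ERK, PI3K and STAT3 routes that act in growth, migration and invasion. In glioblastoma, tumour cells that make both the ligand and the receptor can stimulate themselves.

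Levels are in TPM (a transcript's share of its library, corrected for length) divided by a per-library factor, called scaled TPM. Depth was 1.31 to 3.89 aligned gigabases per library. In 3 libraries much of TPM was ribosomal RNA, namely A41 replicate 2 (56.1%), Bexarotene replicate 1 (44.9%) and Ethanol replicate 2 (35.5%), while the other 15 held at most 4.32%. As a check that treatment acted, CYP26B1, which degrades retinoic acid, lay between 3.03 and 4.89 scaled TPM with ethanol and between 52.3 and 67.9 with A41. DHRS3, a retinaldehyde reductase, lay between 30.1 and 37.8 with ethanol and between 146 and 162 with A41. Of the 7 glial and mesenchymal markers, all passed the filter on low values, with vimentin (VIM) at a mean of 4058 scaled TPM and GFAP, the astrocyte filament protein, at 0.788. Their summed level lay between 5993 and 6155 in the ethanol libraries and between 4973 and 5182 in the A41 libraries, and its part in the results was not tested. Most of that sum is VIM, with means of 4335 with ethanol and 3523 with A41, and CD44, with 1156 and 890. SLC1A3 (19.8 and 18.7), GJA1 (70.2 and 65.5) and FN1 (318 and 304) differed less. CLU (181 and 242) and GFAP (0.719 and 1.04) went the other way. Of the 7 epithelial markers only EPCAM passed the filter, at a mean of 0.939 scaled TPM, while E-cadherin (CDH1) averaged 0.0512. Of the 4 leukocyte and microglia markers, CD68 and CSF1R passed the filter, with means of 177 and 12.4 scaled TPM, while PTPRC averaged 0.0574 and AIF1 was listed at 0 in 16 libraries. Their summed level lay between 157 and 184 with ethanol and between 178 and 246 with A41, ranges that overlap.

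The start-site windows of the ligand and the receptor are shown because the results turn on this pair, and because the receptors of rexinoids act by binding DNA. Both genes lie on chromosome 7 in GRCh38. HGF (ENSG00000019991) is on the minus strand at chr7:81699010-81770438, and MET (ENSG00000105976) is on the plus strand at chr7:116672196-116798377. The sequences, from RefSeq on GRCh38.p14, run from 250 bases before to 50 bases after the annotated start, at chr7:81769998-81770297 on the minus strand for HGF and at chr7:116671946-116672245 on the plus strand for MET. The RefSeq start of HGF lies inside the span that the deposited tables give the gene. RefSeq windows were found for 4 of the 6 genes. Capitals mark the GC box GGGCGG.
HGF: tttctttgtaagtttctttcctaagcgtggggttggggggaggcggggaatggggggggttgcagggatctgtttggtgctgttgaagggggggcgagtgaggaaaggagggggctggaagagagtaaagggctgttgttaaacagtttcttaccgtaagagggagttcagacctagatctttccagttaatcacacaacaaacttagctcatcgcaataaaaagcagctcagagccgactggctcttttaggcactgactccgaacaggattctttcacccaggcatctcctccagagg
MET: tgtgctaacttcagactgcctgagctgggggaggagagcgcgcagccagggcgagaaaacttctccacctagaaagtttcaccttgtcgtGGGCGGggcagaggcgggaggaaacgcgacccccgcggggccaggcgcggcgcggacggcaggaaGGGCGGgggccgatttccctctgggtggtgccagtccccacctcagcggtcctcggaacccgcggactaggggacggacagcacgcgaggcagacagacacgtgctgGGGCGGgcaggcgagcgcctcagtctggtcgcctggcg
The MET window held 3 GC boxes, starting at -160, -95 and +13 from the start site, and the HGF window held 0. A GC box on either strand was present in 45.0% of the 35116 windows searched. The window of MET was 69.3% G and C with 30 CpG dinucleotides, that of HGF was 51.0% with 7, and the medians over all windows were 58.7% and 14. The nuclear receptor half-site AGGTCA, present on either strand in 13.8% of windows, matched 0 times in both genes, and so did its direct repeats spaced by 1, 2, 4 or 5 bases, which contain that half-site. The CCAAT box (CCAAT, 34.6% of windows), the TATA box (TATAAA, 11.5%) and the AP-1 site (TGANTCA, 7.71%) also matched 0 times in both windows. These counts describe letters in 300 bases and say nothing of elements elsewhere.

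HGF transcript was lower in every rexinoid library than in every ethanol library, and it was lowest with A41. The 3 ethanol libraries held 7.53, 8.20 and 8.18 scaled TPM, a mean of 7.97 ± 0.38 (SD, n = 3). With bexarotene the values were 5.61, 5.84 and 6.05, a mean of 5.83 ± 0.22 (SD, n = 3). With A34 they were 5.28, 4.95 and 5.09, a mean of 5.10 ± 0.17 (SD, n = 3). All 3 A34 values lay below the bexarotene values, and both groups lay below ethanol. With A80 the libraries held 5.50, 5.26 and 5.27 scaled TPM, a mean of 5.34 ± 0.14 (SD, n = 3). With A98 they held 4.89, 4.88 and 6.46, a mean of 5.41 ± 0.91 (SD, n = 3). A98 replicate 3 stood above the other A98 libraries and above every bexarotene library. With A41 the libraries held 3.81, 3.60 and 4.25 scaled TPM, a mean of 3.89 ± 0.33 (SD, n = 3). All 3 A41 values lay below the lowest of the other 15 libraries, and the lowest of them, replicate 2, is the library with the most ribosomal RNA. In RNA from bulk cells, fewer cells making HGF and less HGF RNA per cell cannot be told apart.

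**Figure D1:**
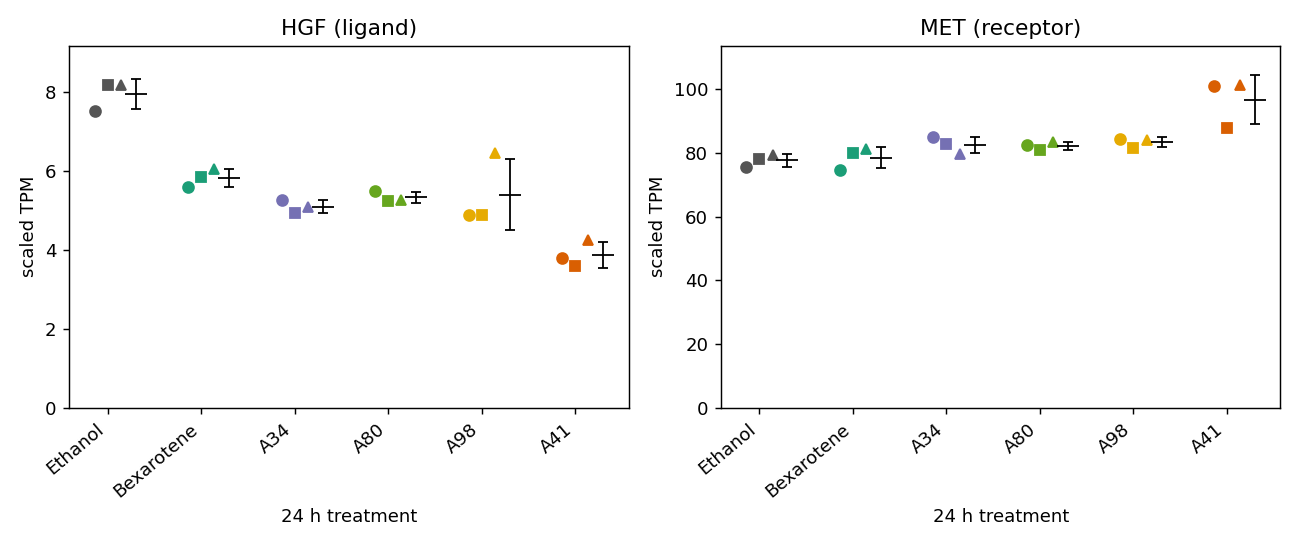
Scaled TPM (linear axis from 0) of HGF, left, and MET, right, in each of the 18 libraries by treatment; circles, squares and triangles are replicates 1, 2 and 3, and black bars give the mean and SD of 3 libraries. All 15 rexinoid libraries lie below the ethanol libraries for HGF, and the 3 A41 libraries lie above the other 15 for MET; on TPM as deposited, without scaling, the A41 minus ethanol difference of MET was -0.03 on the log2 scale.

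Relative to the ethanol mean, the mean HGF level was 73.2% with bexarotene, 67.9% with A98, 67.0% with A80, 64.0% with A34 and 48.8% with A41. Expressed as log2(scaled TPM + 1), a scale that compresses changes of low genes such as this, the differences from ethanol were -0.39, -0.49, -0.50, -0.55 and -0.88 in the same order. The pattern of all 15 rexinoid libraries below all 3 ethanol libraries was shown by 0.569% of the 18269 genes tested, and that of all 3 A41 libraries below the other 15 by 0.328%. HGF was proposed for this difference, so these shares are background only. A41 minus bexarotene was -0.49, A41 minus A34 was -0.32, and A41 minus A80 and A41 minus A98 were each -0.38. On gene coverage in place of TPM, the first 2 were -0.30 and -0.15, and on TPM as deposited A41 minus A34, A80 and A98 was -0.63, -0.68 and -0.77, where the medians of all genes were -0.35, -0.34 and -0.42. HGF coverage was 1.16 to 6.43 reads per base with a median of 2.63, so the precision of a single library is limited, most in A41 replicate 2, where it was lowest.

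Among the rexinoids other than A41, no difference in HGF passed the test. The 6 pairs among bexarotene, A34, A80 and A98, at the same dose and time, use none of the libraries that chose the gene and were tested with limma. Of the 6 pairs, 0 passed an adjusted p of 0.05, and 0 had an unadjusted p under 0.05. With all libraries, the largest difference was A34 minus bexarotene at -0.16 (95% interval -0.38 to 0.06, adjusted p = 0.91). A80 minus bexarotene was -0.11 (-0.33 to 0.11, adjusted p = 0.87) and A98 minus bexarotene was -0.10 (-0.32 to 0.12, adjusted p = 0.89). The 3 pairs among A34, A80 and A98 differed by 0.01 to 0.06, with intervals from -0.22 to 0.28. The libraries did not overlap in 2 pairs, A34 and A80 each lying below bexarotene, separations shown by 4.61% and 5.98% of genes tested. The intervals do not show that these compounds act alike on HGF, and over the 6 pairs they reach -0.38 and 0.28. Over all genes tested, 0 to 1 passed in each of these 6 comparisons (at most 0.00547%). Without A98 replicate 3, A98 minus A80 was -0.11 and A98 minus A34 was -0.05, each of the opposite sign, and A98 minus bexarotene was -0.22 (-0.04 without either other A98 library). On TPM as deposited A34, A80 and A98 minus bexarotene turned to 0.07, 0.13 and 0.21, where the medians of all genes were 0.24, 0.24 and 0.32.

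MET was expressed at a higher level than HGF in all 18 libraries and differed less between treatments. Its mean over the libraries was 83.5 scaled TPM, above that of 93.3% of the genes tested, while the HGF mean of 5.59 was above that of 43.6%. The ethanol libraries held 75.5, 78.0 and 79.3 scaled TPM of MET, a mean of 77.6 ± 1.9 (SD, n = 3). The bexarotene libraries held 74.8, 79.8 and 81.1, a mean of 78.6 ± 3.3 (SD, n = 3). The lowest of the 18 values is that of bexarotene replicate 1, which is rich in ribosomal RNA, and the bexarotene and ethanol ranges overlap. A34 gave 85.0, 82.7 and 79.7 scaled TPM, a mean of 82.5 ± 2.6 (SD, n = 3). A80 gave 82.5, 80.8 and 83.3, a mean of 82.2 ± 1.3 (SD, n = 3). A98 gave 84.4, 81.6 and 84.2, a mean of 83.4 ± 1.6 (SD, n = 3). The ranges of A34, A80 and A98 overlap one another and lie above that of ethanol, as was so for 8.22%, 8.6% and 8.49% of genes tested with A34, A80 and A98. A41 gave 101, 87.9 and 101, a mean of 96.7 ± 7.7 (SD, n = 3). All 3 A41 libraries lay above the other 15, and replicate 2, with the most ribosomal RNA, was the lowest of them.

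Against ethanol, MET did not pass the threshold with the 4 rexinoids for which it was tested. The log2 difference was 0.02 with bexarotene (95% interval -0.11 to 0.15, limma adjusted p = 0.99). It was 0.09 with A34 (-0.04 to 0.22, adjusted p = 0.66). With A80 it was 0.08 (-0.05 to 0.21, adjusted p = 0.72), and with A98 it was 0.10 (-0.03 to 0.23, adjusted p = 0.81). Of all genes tested, 0.0547% passed with bexarotene, 0.0821% with A34, 0.0438% with A80 and 0.0328% with A98. With A41 the mean was 24.6% above ethanol, a log2 difference of 0.31, given without a test; on TPM as deposited it was -0.03, where the median of all genes tested was -0.27. After ribosomal RNA genes were left out of TPM it was 0.14, where that median was -0.16. Of all genes tested, 0.755% passed in A41 against ethanol.

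A41 also had more MET transcript than each other rexinoid, by differences that missed the threshold after adjustment. A41 minus bexarotene was 0.29 (95% interval 0.16 to 0.43, limma adjusted p = 0.10), where 0.115% of all genes tested passed. A41 minus A80 was 0.23 (0.10 to 0.36, adjusted p = 0.24, background 0.126%) and A41 minus A34 was 0.23 (0.09 to 0.36, adjusted p = 0.33, background 0.0712%). A41 minus A98 was 0.21 (0.08 to 0.34, adjusted p = 0.36, background 0.131%). On TPM as deposited A41 minus A34 was -0.20, A41 minus A80 was -0.19 and A41 minus A98 was -0.30, where the medians of all genes were -0.35, -0.34 and -0.42. Without A41 replicate 2, A41 minus bexarotene was 0.36 and passed (adjusted p = 0.033). Of the 14 comparisons in which MET was tested, 0 passed and 4 had an unadjusted p under 0.05, namely these 4. The pattern of all 3 A41 libraries above the other 15 was shown by 0.651% of genes tested. The coverage of MET was 26.9 to 82.7 reads per base.

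The amount of ligand transcript relative to receptor transcript can be read within a library and does not depend on any scaling. Ethanol libraries held 9.97, 10.5 and 10.3 TPM of HGF per 100 TPM of MET, a mean of 10.3 ± 0.27 (SD, n = 3). Bexarotene libraries held 7.50, 7.32 and 7.46, a mean of 7.43 ± 0.093 (SD, n = 3). Every bexarotene value lay below every ethanol value. A34 libraries held 6.21, 5.99 and 6.38, A80 libraries held 6.66, 6.50 and 6.32, and A98 libraries held 5.79, 5.98 and 7.67. A98 replicate 3 again stood apart, above all the bexarotene values. A41 libraries held 3.77, 4.10 and 4.19, a mean of 4.02 ± 0.22 (SD, n = 3). The A41 values lay below those of the other 15 libraries, and A41 replicate 2 lay between the other A41 libraries. These ratios use HGF and are a description.

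**Figure D2:**
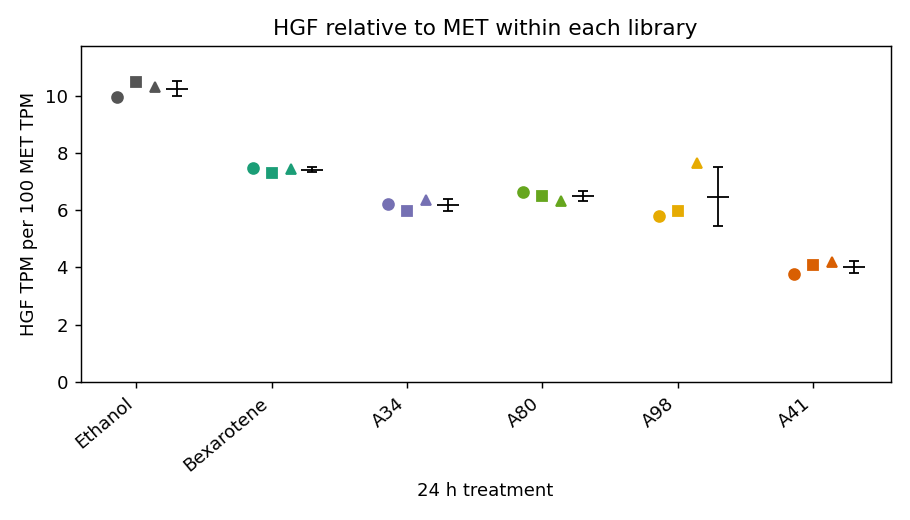
HGF TPM per 100 MET TPM within each library (linear axis from 0), by treatment; circles, squares and triangles are replicates 1, 2 and 3, and black bars give the mean and SD of 3 libraries. The ethanol libraries lie between 9.97 and 10.5 and the A41 libraries between 3.77 and 4.19.

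The 4 genes that activate HGF or restrain its activation were near or at the bottom of what these libraries can measure, and none passed the filter of 1 TPM in at least 3 libraries. HGFAC (ENSG00000109758, chr4:3441968-3449486), the blood-borne HGF activator, was listed at 0 in 16 of 18 libraries. Its remaining values were 0.214 scaled TPM in Ethanol replicate 1 and 0.0383 in A34 replicate 3. ST14 (ENSG00000149418, chr11:130159782-130210362), which encodes matriptase, an epithelial membrane protease, was above 0 in 14 libraries, with a mean of 0.0844 scaled TPM and a highest value of 0.247 in A80 replicate 1. Zeros and values above 0 occurred in the ethanol, A41 and A98 groups alike for ST14, and no group stood apart. SPINT1 (ENSG00000166145, chr15:40844018-40858207), the inhibitor of HGFAC and matriptase, was listed at 0 in 10 libraries and reached at most 0.109, in A34 replicate 1. SPINT2 (ENSG00000167642, chr19:38244035-38292615), a related inhibitor, was listed at 0 in 11 libraries, the 3 A41 and the 3 A98 libraries among them, and reached at most 0.438, in A34 replicate 2. At these levels a difference between treatments was not detectable, and no fold is given.

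Other proteases known to cut HGF were present in these cells. Urokinase (PLAU) averaged 666 scaled TPM over the 18 libraries and ranged from 413 to 847. Its log2 difference from ethanol was -0.03 with A41 (limma adjusted p = 0.98), and the widest, -0.49, was with A34 (adjusted p = 0.39). Tissue plasminogen activator (PLAT) averaged 4.45 scaled TPM, at 4.12 ± 0.56 with ethanol and 7.18 ± 0.56 with A41 (SD, n = 3 each). Its difference of 0.68 with A41 missed the threshold (adjusted p = 0.065) and passed with the replicate numbers of the titles as a block (adjusted p = 0.044). That fit applies the block to all 6 groups, and the labels do not say that the numbers pair libraries. The other 8 proteases of the list, hepsin (HPN), TMPRSS2, TMPRSS13, KLK4, KLK5, KLKB1, F11 and F12, did not pass the filter, and HPN was listed at 0 in all 18 libraries. The highest value among the others was 0.981, for F11. Among the serpins that inhibit such proteases, SERPINE2 averaged 48.2 scaled TPM and SERPINA5 averaged 0.00487, under the filter. SERPINE2 differed from ethanol by -0.29 to 0.03 across the 5 rexinoids and did not pass. The paralogous ligand MST1 averaged 2.65 scaled TPM and its receptor MST1R averaged 0.0228, under the filter. MST1 differed from ethanol by 0.49 with A41 (adjusted p = 0.50).

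**Figure D3:**
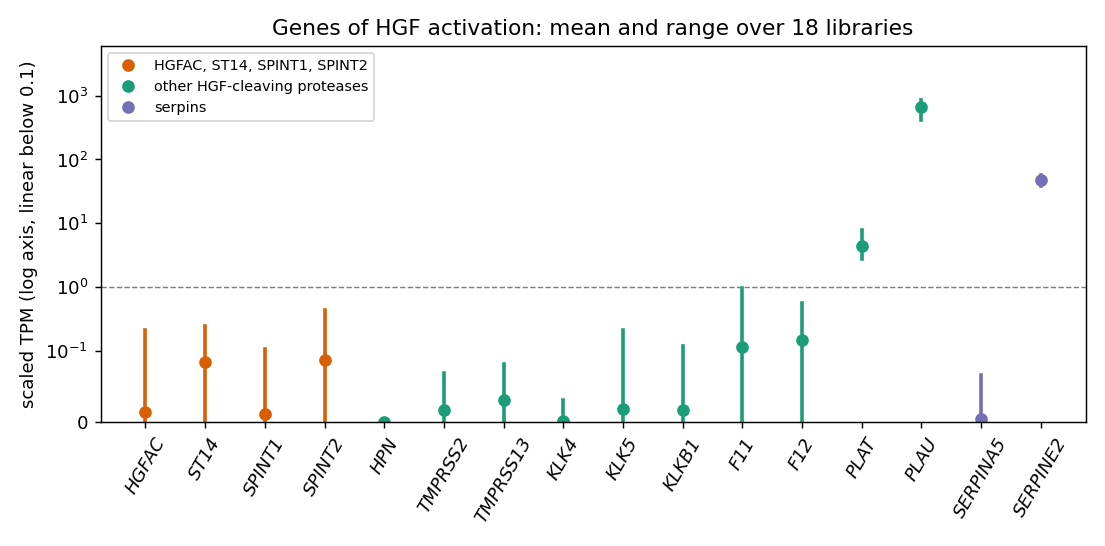
Mean (point) and range (line) of scaled TPM over the 18 libraries for genes of HGF activation, on a log axis that is linear below 0.1; the dashed line marks 1 TPM and colours separate HGFAC, ST14, SPINT1 and SPINT2 from other proteases and from serpins. PLAU at 666 and SERPINE2 at 48.2 lie far above HGFAC, ST14, SPINT1 and SPINT2, whose highest value is 0.438.

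Beyond the ligand and its activation, 69 genes in 7 lists (proteases, serpins, paralogues, coreceptors, adaptors, attenuators and ERK response genes) were examined, of which 56 passed the filter. With A41, 3 were higher and 4 lower than with ethanol at an adjusted p under 0.05, 5.36% and 7.14% of those tested, against 0.509% and 0.246% of all genes tested. The lists were written with HGF, CD44 and SPRY2 known from earlier results of these data. The counts, and the p-values of CD44 and SPRY2 in every fit, are therefore no independent evidence of a change or its direction. On TPM as deposited, without scaling, 0 of the 7 passed (limma adjusted p = 0.82 to 0.99). Over all 18269 genes tested, 4 passed on that scale, against 138 with scaling. With bexarotene, A34, A80 and A98, 0 of the 56 passed in limma, while 7, 15, 12 and 6 had an unadjusted p under 0.05 (12.5%, 26.8%, 21.4% and 10.7%), against 5.75%, 10.7%, 9.41% and 6.63% of all genes tested. With A41 it was 16 (28.6%), against 10.4% of all genes. These shares come from the same lists and carry the same limit, and the listed genes were not matched to all genes for level or spread. With the 3 ribosomal RNA-rich libraries omitted, PTPRJ and SPRY2 passed in A41 against ethanol (adjusted p = 0.013 and 0.014), and NRP2, CD44, PTK2, SPRY4 and DUSP4 did not (0.054 to 0.20). With only these 2 groups fitted, NRP2, PTPRJ and SPRY2 passed and CD44, PTK2, SPRY4 and DUSP4 did not (0.12 to 0.33). Over all 18269 genes tested, 48 passed without those 3 libraries and 33 with only these 2 groups fitted.

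**Figure D4:**
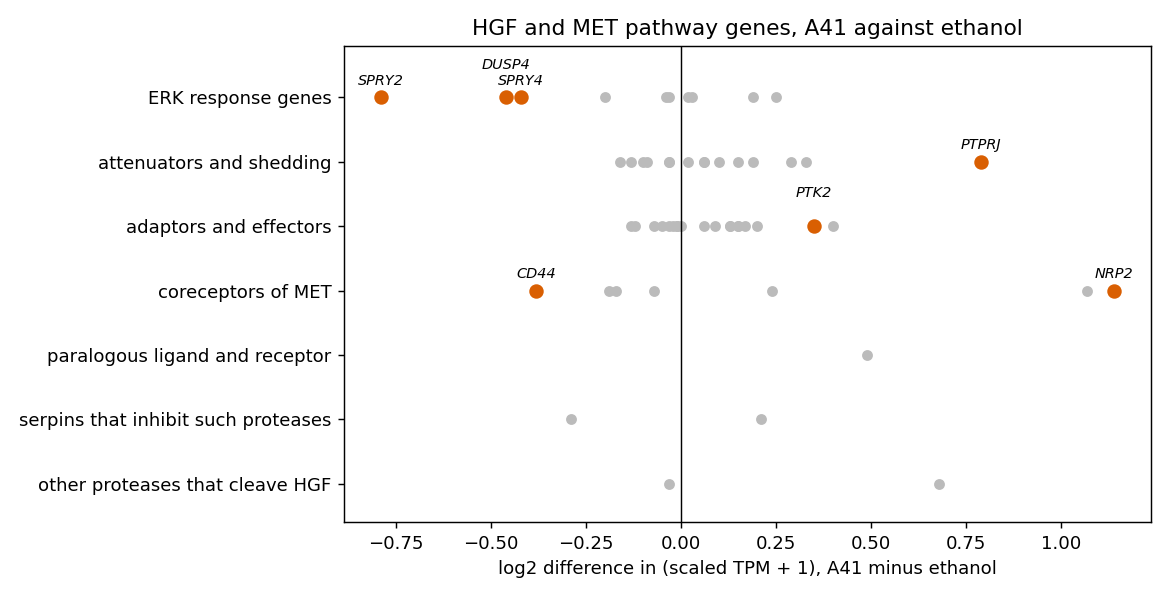
Log2 difference in (scaled TPM + 1), A41 minus ethanol, of the 56 tested pathway genes, 1 row for each of the 7 lists; labelled orange points passed an adjusted p of 0.05 and grey points did not. The passing genes run from SPRY2 at -0.79 to NRP2 at 1.14.

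Coreceptors are surface proteins that bind MET or present HGF to it. Of 10, 7 were tested and 2 passed in A41 against ethanol, in opposite directions. NRP2, a neuropilin that binds semaphorins and growth factors, held 68.3, 58.9 and 58.9 scaled TPM with ethanol and 150, 135 and 128 with A41. Its log2 difference was 1.14 (SE 0.16, limma adjusted p = 0.0014), and with the other 4 rexinoids it was 0.37 to 0.58 (adjusted p = 0.23 to 0.84). A41 minus those rexinoids was 0.56 to 0.77 for NRP2 and did not pass (adjusted p = 0.091 to 0.36). Without the 3 ribosomal RNA-rich libraries NRP2 missed the threshold with A41 (1.11, adjusted p = 0.054). CD44, the hyaluronan receptor, whose variants can present HGF to MET, held 1223, 1081 and 1163 scaled TPM with ethanol and 869, 860 and 940 with A41. It was lower by 0.38 (adjusted p = 0.027), and as CD44 was known from earlier results of these data, this p-value is no independent evidence. CD44 kept this call when Ethanol replicate 2 was left out (adjusted p = 0.039) and lost it when any other library of the pair was (0.052 to 0.14). It did not pass in a block fit on the numbers in the file names, chosen after seeing the data (0.059). With the other 4 rexinoids CD44 differed from ethanol by -0.17 to -0.23 (adjusted p = 0.41 to 0.84). A41 minus those rexinoids was -0.15 to -0.20 for CD44 and did not pass (0.52 to 0.70). The other tested coreceptors did not pass with A41: ICAM1 differed by 1.07 (adjusted p = 0.31), CD151 by 0.24, NRP1 by -0.19, SDC1 by -0.17 and GPC1 by -0.07. The median difference of the list was -0.07, against -0.007 for all genes. PLXNB1, ITGA6 and ITGB4 did not pass the filter.

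Of the 19 adaptors and effectors that carry the signal of MET, all passed the filter and 1 passed the threshold in A41 against ethanol. PTK2, the focal adhesion kinase, held 53.1, 54.8 and 52.0 scaled TPM with ethanol and 72.2, 65.1 and 67.7 with A41, a difference of 0.35 (limma adjusted p = 0.048). PTK2 did not pass in any fit that omitted 1 of the 6 libraries (adjusted p = 0.076 to 0.19), nor in the block fit on file numbers (0.073). The docking protein GAB1 had the lowest mean of the list at 2.39 scaled TPM and differed by -0.12 (adjusted p = 0.87), and RAC1 had the highest at 157 and differed by -0.05 (adjusted p = 0.88). The list median was 0.06, against -0.007 for all genes.

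Of the 15 genes listed as attenuators and shedding enzymes, all were tested and 1 changed with A41. PTPRJ, a receptor-type phosphatase that can dephosphorylate MET, held 11.4, 12.7 and 11.7 scaled TPM with ethanol and 19.8, 21.7 and 22.8 with A41. The 3 A41 values lay above those of the other 15 libraries, as was so for 0.651% of genes tested. The difference from ethanol was 0.79 (SE 0.10, limma adjusted p = 0.00073), and leaving out any 1 of the 6 libraries left it past the threshold (0.0022 to 0.0066). PTPRJ was also higher with A41 than with A34 by 0.71 (adjusted p = 0.010), than with A80 by 0.72 (0.0069) and than with A98 by 0.56 (0.042), and A41 minus bexarotene was 0.53 (0.059). The ubiquitin ligase CBL differed by -0.13 with A41 (adjusted p = 0.62), and the sheddases ADAM10 and ADAM17 by 0.02 and 0.10 (adjusted p = 0.98 and 0.76). The list median was 0.06.

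Transcripts that ERK signalling induces are a common readout below MET and other receptors. All 10 such genes were tested, and 3 passed as lower with A41 than with ethanol. SPRY2, a feedback inhibitor of receptor tyrosine kinase signalling, held 61.6, 62.7 and 65.7 scaled TPM with ethanol and 33.9, 39.3 and 35.3 with A41. It fell by 0.79 (SE 0.10, limma adjusted p = 0.00084) and passed without any 1 of the 6 libraries (0.0019 to 0.0082). SPRY2 was known from earlier results of these data when the list was written, so these p-values are no independent evidence. With the other 4 rexinoids SPRY2 differed from ethanol by -0.21 to -0.44 (adjusted p = 0.18 to 0.84). A41 minus A98 was -0.58 for SPRY2 (adjusted p = 0.040), while A41 minus bexarotene (-0.55, 0.059), A80 (-0.47, 0.12) and A34 (-0.35, 0.37) did not pass. DUSP4, a phosphatase that acts on MAP kinases, held 29.1, 26.7 and 27.5 scaled TPM with ethanol and 19.9, 19.3 and 20.6 with A41, and fell by 0.46 (adjusted p = 0.0089). The DUSP4 call was lost without Ethanol replicate 1 (adjusted p = 0.058), without the 3 ribosomal RNA-rich libraries (0.098) and with only these 2 groups fitted (0.12). With the other 4 rexinoids DUSP4 differed from ethanol by -0.11 to -0.24 (adjusted p = 0.35 to 0.84). A41 minus those rexinoids was -0.22 to -0.35 for DUSP4 and did not pass (0.12 to 0.55). SPRY4, a relative of SPRY2, fell by 0.42 with A41 (adjusted p = 0.034) and lost the call without any 1 of the 6 libraries (0.064 to 0.15). With A34, SPRY4 differed by -0.41 (adjusted p = 0.15), and with bexarotene, A80 and A98 by -0.20 to -0.35 (0.24 to 0.84). A41 minus the other 4 rexinoids was -0.22 to -0.01 for SPRY4 and did not pass (0.69 to 0.99). Other genes of the list did not pass, among them DUSP6 at 0.25 (adjusted p = 0.77), CCND1 at -0.20 (0.50), PHLDA1 at 0.03 (0.95) and ETV5 at -0.03 (0.94). The list median was -0.04.

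**Figure D5:**
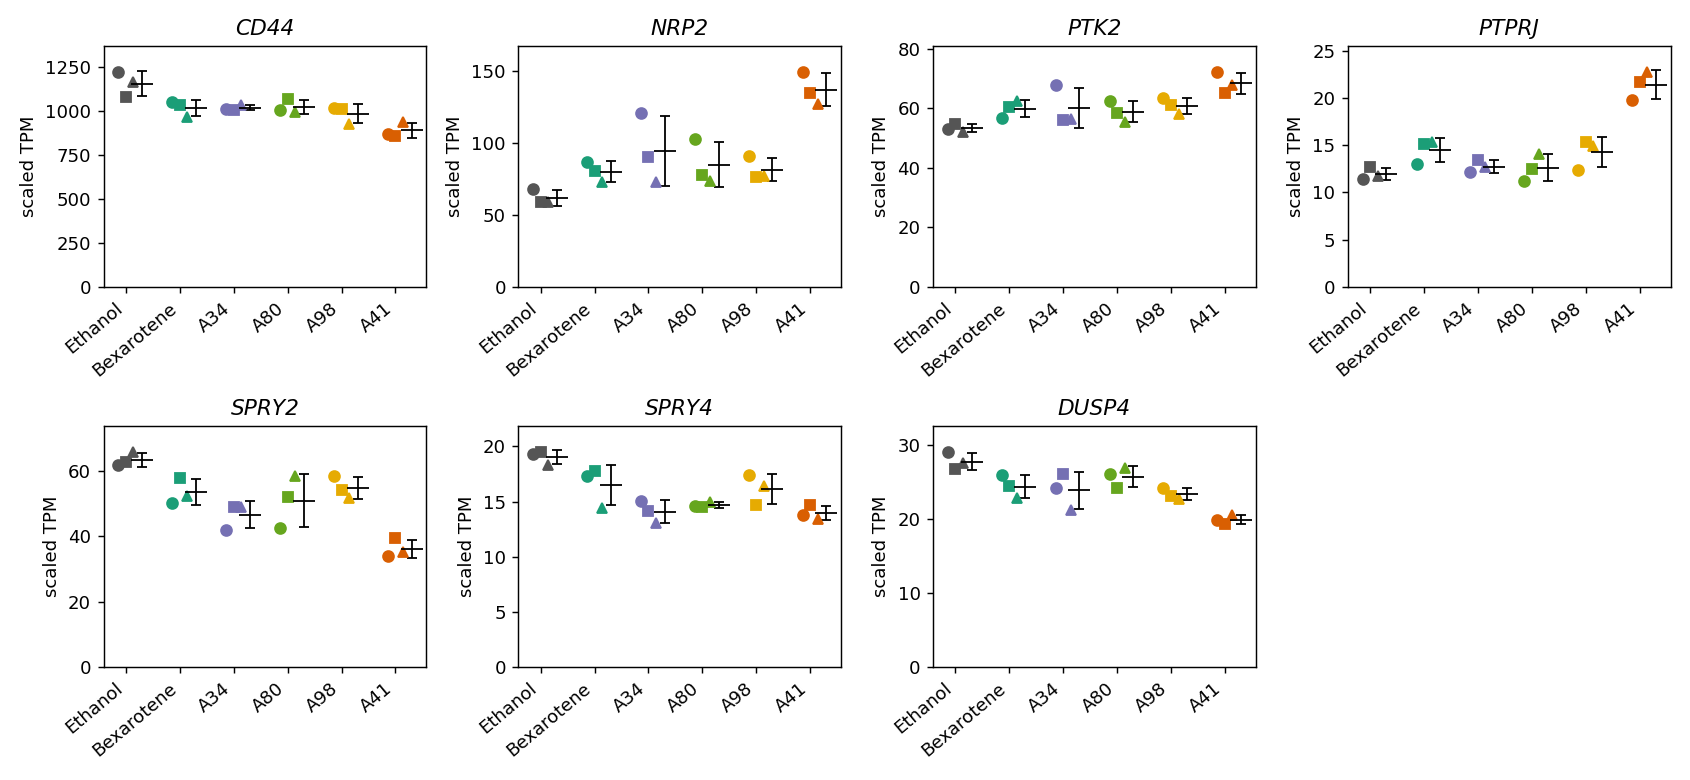
Scaled TPM (linear axes from 0) of the 7 pathway genes that passed in A41 against ethanol, in each of the 18 libraries; circles, squares and triangles are replicates 1, 2 and 3, and black bars give the mean and SD of 3 libraries. PTPRJ lies between 19.8 and 22.8 with A41 and at most at 15.4 elsewhere.

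Neighbours on chromosome 7 were compared to see whether HGF and MET moved with the nearest genes that passed the filter. Differences are A41 minus ethanol unless other rexinoids are named. On the side of lower coordinates from HGF, SEMA3C, a secreted semaphorin 777 kb away, fell with A41 from a mean of 34.7 to 25.2 scaled TPM, by 0.45 on the log2 scale (limma adjusted p = 0.013). It kept this call without A41 replicate 1 (0.0072) and lost it without any other library of the pair (0.056 to 0.064), without the 3 ribosomal RNA-rich libraries (0.16), with only these 2 groups fitted (0.19) and in the block fit on file numbers (0.053). GNAI1, further off on that side, differed by 0.32 (adjusted p = 0.73). On the other side, CACNA2D1, 176 kb away, differed by -0.23 (adjusted p = 0.68) and PCLO by -0.07 (0.93). Beside MET, CAV1 (caveolin 1, 111 kb away) averaged 294 scaled TPM with ethanol and 246 with A41, a difference of -0.27 (adjusted p = 0.51). CAPZA2, 12.7 kb away, differed by -0.10 (0.72), ST7 by 0.00 (1.0) and the antisense gene AC006159.1 by -0.11 (0.96).

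The genes whose levels over the 18 libraries were most like those of HGF were DSEL (Pearson r = 0.93), HMGA2 (0.90), SLC35B4 (0.90), SPTLC3 (0.87) and ADAMTS1 (0.86). HMGA2, a chromatin architectural protein, averaged 132 scaled TPM with ethanol, 75.0 with A41 and 102 over the other 12 libraries. After group means were removed, r with HGF was 0.79 for DSEL, 0.34 for SLC35B4, 0.41 for SPTLC3, 0.08 for HMGA2 and -0.38 for ADAMTS1. The genes most like MET were SMAD3 (0.89), KANSL3 (0.89), SKAP2 (0.88), ACSL4 (0.86) and ARL14EPL (0.86). SMAD3, a transducer of TGF-beta signals, averaged 38.4 scaled TPM with ethanol and 74.7 with A41. With group means removed, r with MET was 0.42 for SMAD3, 0.56 for KANSL3, 0.60 for SKAP2, 0.83 for ACSL4 and 0.57 for ARL14EPL. Between HGF and MET, r was -0.69 over the libraries and 0.48 with group means removed. These values describe likeness only. The libraries share treatment groups and scaling factors, and the genes were the 5 highest of 18269.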

How the data were processed

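RNA was measured in 18 libraries of U87 cells, 6 groups of 3 taken from the treatment in the labels. Ribosomal RNA was removed before random-primed library construction, per the labels' protocols. The submitters' processing notes name STAR, StringTie, MultiQC and build GRCh38, with versions, annotation release and strand handling not given in the sources used here. Per the file headers, each deposited table holds TPM, FPKM and coverage per gene, computed by the authors. FPKM and coverage, a mean signal in reads per base, served to estimate depth: the highest ratio of coverage to FPKM in a library, shared by genes with a single transcript, gives its aligned bases. Without read counts, no count model could be applied.

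Scaled TPM is TPM over a median-of-ratios factor (0.417 to 1.204) taken from 16349 genes above 0 in every library. The filter, 1 TPM or more in 3 or more libraries, left 18269 genes for testing. A single limma model (version 3.58.1 in R 4.3.3, with a trend) covered the 6 groups on log2(scaled TPM + 1), leaving 12 residual degrees of freedom. P-values are two-sided and were adjusted by Benjamini and Hochberg's method across every gene tested, with a threshold of 0.05. The fit was tested on simulated data. No library pair held identical values (0 pairs). The replicate numbers of the titles were checked as pairs: same-numbered libraries correlated in their deviations from group means by 0.12 to 0.31 in A41 against ethanol, where by the rule used they pair the libraries, and a block changed 1 call of a pathway gene there, that of PLAT. The 6 genes and all lists were chosen with earlier results of these data known. Named genes were the 6 genes, CYP26B1 and DHRS3, list members past the threshold (at most 4 per list, and all members of lists of 3 or fewer), the 2 nearest tested neighbours on each side and the 5 most similar genes; other list members given with values were added after their values were seen, and 1 item of the lists is not reported here. Alternatives were pseudocounts, scalings, filters, fits, replicate blocks and omitted libraries.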

Additional observations from a re-analysis of the deposited data

How the results depend on the processing

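HGF stayed lower than ethanol with all 5 rexinoids, and lower with A41 than with each other rexinoid, under all 18 alternatives. With a pseudocount of 5 its differences from ethanol were -0.26 (bexarotene), -0.36 (A34), -0.33 (A80), -0.32 (A98) and -0.55 (A41), and those of A41 from bexarotene, A34, A80 and A98 were -0.29, -0.19, -0.22 and -0.23. With a pseudocount of 0.1 they were -0.63 (A34), -0.57 (A80) and -1.02 (A41) from ethanol, and -0.58 and -0.45 for A41 minus bexarotene and A80. Unscaled TPM, as deposited, shifted the all-gene median by -0.42 to 0.32 over the 15 comparisons, and HGF then differed from ethanol by -0.56, -0.48, -0.43, -0.34 and -1.11 (bexarotene, A34, A80, A98, A41). On that scale A41 minus A34, A80 and A98 was -0.63, -0.68 and -0.77, and the tested pairs reversed, A34, A80 and A98 minus bexarotene being 0.07, 0.13 and 0.21. TPM without ribosomal RNA genes (medians -0.16 to 0.09) gave -0.53, -0.68, -0.63 and -1.04 for bexarotene, A34, A80 and A41. Gene coverage in place of TPM, an alternative chosen after seeing the data, gave -0.45 (A80) and -0.72 (A41) from ethanol, -0.30, -0.15 and -0.27 for A41 minus bexarotene, A34 and A80, and -0.02 for A98 minus A80. Leaving out 1 library, A98 minus A34 ranged from -0.05 to 0.12 and A98 minus A80 from -0.11 to 0.06.

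MET reversed on TPM as deposited with bexarotene (-0.19) and A41 (-0.03) against ethanol and for A41 minus A34 (-0.20), A80 (-0.19) and A98 (-0.30). Without ribosomal RNA genes it was -0.13, -0.04 and -0.05 with bexarotene, A34 and A80, and 0.14 with A41. Leaving out 1 library, bexarotene minus ethanol ranged from -0.01 to 0.05, A98 minus A34 from -0.01 to 0.04, and A41 minus bexarotene from 0.26 to 0.36. Gene coverage gave 0.29 for A41 minus bexarotene, past the threshold (limma adjusted p = 0.026). PTK2 with bexarotene was -0.04 on TPM as deposited. PTPRJ without ribosomal RNA genes was -0.03 with A34 and -0.06 with A80, and -0.01 with A80 when A80 replicate 3 was left out.

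Pathway genes called higher with A41 numbered 0 on TPM as deposited, 1 without ribosomal RNA genes and 1 when the 3 ribosomal RNA-rich libraries were omitted, against 3. Those called lower numbered 0 on TPM as deposited, 1 with only the 2 groups fitted and 1 without the 3 libraries, against 4, and 1 to 3 with 1 library left out. Calls over all 18269 genes fell as well, from 138 to 4 on TPM as deposited and 48 without the 3 libraries. They numbered 33 with only the 2 groups fitted and 71 to 113 with 1 library left out. Without ribosomal RNA genes, 106 of 18249 genes were called. PTPRJ and SPRY2 stayed past the threshold without the 3 libraries, and PTPRJ missed it without ribosomal RNA genes (0.63, adjusted p = 0.058). With the replicate block from titles, 2 pathway genes were called higher (NRP2, ICAM1) and 2 lower (SPRY2, SPRY4) with A34, and 2 higher with A80 (NRP2, ICAM1), while calls over all genes went from 15 to 166 (0.909%) and from 8 to 117 (0.64%); with a block from the file numbers, chosen after seeing the data, 2 and 1 with A34. Against ethanol, same-numbered libraries correlated by -0.01 to 0.06 with A34 and 0.01 to 0.09 with A80, not above the limit in every pair. By the rule used the numbers therefore do not pair these libraries. Whether such libraries share more than a number was not tested. In A41 against ethanol the title block added the call of PLAT and changed no other call of a pathway gene, while the file-number block ended those of CD44 (adjusted p = 0.059), PTK2 (0.073) and the HGF neighbour SEMA3C (0.053). Neither block changed a call of HGF or MET. The cause of these changes was not tested. Depth limits the precision of low genes such as HGF, and HGFAC, ST14, SPINT1 and SPINT2, under the filter, were not fitted.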

Other observations

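Coverage per base relative to FPKM is highest for genes with a single transcript and lower where a gene's bases are spread over several transcripts. As a share of that highest ratio, HGF stood at 0.425 ± 0.018 with ethanol, 0.391 ± 0.022 with bexarotene, 0.384 ± 0.025 with A34, 0.414 ± 0.011 with A80, 0.403 ± 0.020 with A98 and 0.428 ± 0.036 with A41 (SD, n = 3 each). Over the 3 libraries the A34 range (0.355 to 0.399) lay below that of ethanol (0.413 to 0.446), and the ranges of bexarotene, A80, A98 and A41 overlapped that of ethanol. MET stood at 0.458 ± 0.0025 with ethanol. These shares are values only and were not tested, and how often other genes separate in this way was not counted.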
